A study of Mus musculus with 16 samples.

Results

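The large subunit of the cytosolic ribosome is built from ribosomal RNA and a set of Rpl and Rplp proteins, and the genes for these proteins were followed here through ribosome footprints and total RNA of mouse embryonic stem cells. Members were the gene names that begin with Rpl and a digit, or are Rplp0, Rplp1 or Rplp2. Names with "-ps" (12 pseudogene entries) were left out, and a mean of at least 10 normalised reads was required in both assays. This gave 52 of 53 such names among 21977 gene names. Rpl6l, with means of 2.1 footprint and 0.865 total RNA reads, fell outside, and Rpl3l, with means of 40.1 and 34.2, was the nearest inside. All 52 members were tested in every comparison, 46 of them canonical subunit genes and 6 of them paralogs (Rpl3l, Rpl7l1, Rpl10l, Rpl22l1, Rpl36al and Rpl39l).

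The study compared cells with and without Nat1, also called Eif4g2 or DAP5, a member of the eIF4G family of translation initiation factors that lacks the part that binds the cap-binding protein eIF4E. WT cells were 2 cultures (WTex1 and WTex2) of the line RF8 without a Nat1 deletion. The targeted lines were the Nat1+/- lines A7, B4 and C1, heterozygous for Nat1, and the Nat1-/- lines B12, B2 and C3, null for Nat1. Values below are given in those orders. Every line was grown with LIF, the cytokine that keeps mouse embryonic stem cells undifferentiated, on gelatin, and 1 library of ribosome-protected fragments (footprints, the pieces of mRNA covered by translating ribosomes) and 1 of total RNA were made from each of the 8 cultures. The WT cultures share 1 line, so their spread is that of cultures, whereas the spread of the other groups is that of separate lines, and a property of the RF8 cultures cannot be told apart from genotype in comparisons with WT.

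Ribosomal proteins are made in about equal amounts and assembled with ribosomal RNA in the nucleolus. Most of their mRNAs begin with a C followed by a run of pyrimidines, the 5′ terminal oligopyrimidine (TOP) tract, and growth signals through mTORC1, with the tract-binding protein Larp1, raise or lower the translation of these mRNAs together. Stem cells divide fast and put a large share of their translation into ribosomes.

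RefSeq promoters (GRCm38.p6) were found for 40 of the 52 members and were searched, on the gene's strand, for C followed by at least 4 pyrimidines. Of these members 6 have more than 1 annotated start, and a member counted if any of its starts qualified, as did every other gene. The tract began exactly at the annotated start in 7 of 40 members (17.5%), against 3.03% of 9876 tested genes with an entry. It began within 5 bases of the start in 17 members (42.5%), against 24.1% of the same genes. All 7 members of the first kind are shown (for Rpl35a, the 1 of its 3 starts that carries the tract), since they carry the letters that define the class. Each window runs from 10 bases before the annotated start to 20 bases from it, 5′ to 3′, with the tract in capitals.
Rpl14 (chr9:120571507-120571536, plus strand): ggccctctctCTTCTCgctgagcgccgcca
Rpl15 (chr14:18270967-18270996, minus strand): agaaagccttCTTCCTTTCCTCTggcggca
Rpl28 (chr7:4792955-4792984, plus strand): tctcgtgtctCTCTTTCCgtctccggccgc
Rpl35 (chr2:39005112-39005141, minus strand): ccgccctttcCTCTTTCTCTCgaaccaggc
Rpl35a (chr16:33056472-33056501, plus strand): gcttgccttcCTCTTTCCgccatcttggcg
Rpl38 (chr11:114668570-114668599, plus strand): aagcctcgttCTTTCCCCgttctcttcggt
Rplp2 (chr7:141447641-141447670, plus strand): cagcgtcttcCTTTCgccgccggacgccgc
The next windows belong to members that the results turn on. In Rpl22l1, the member with the highest footprint fold change, the tract began 3 bases after the annotated start, and in Rpl12, of the ribosomal stalk, it began 2 bases after it.
Rpl22l1 (chr3:28805498-28805527, plus strand): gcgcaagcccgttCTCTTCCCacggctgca
Rpl12 (chr2:32961702-32961731, plus strand): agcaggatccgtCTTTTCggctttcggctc
No such tract began within 5 bases of the annotated start in Rpl7l1, the member with the smallest TE change, or in the paralogs Rpl10l and Rpl39l, whose order over the cultures differed from that of most members.
Rpl7l1 (chr17:46782637-46782666, minus strand): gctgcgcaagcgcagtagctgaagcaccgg
Rpl10l (chr12:66284382-66284411, minus strand): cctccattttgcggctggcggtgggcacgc
Rpl39l (chr16:10170218-10170247, plus strand): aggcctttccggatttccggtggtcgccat
The absence of the letters from a window says nothing more, since annotated starts can lie some bases from the start used in these cells. The 300-base promoter windows held CCGGAA or TTCCGG, the core of ETS factor sites, in 52.5% of the 40 members and in 31.0% of tested genes. AAGATGG or CCATCTT, the core of YY1 sites, stood in 12.5% and 8.21%, and TATAAA or TTTATA in 12.5% and 8.42%, each searched on both strands, and no string contains another.

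The footprint libraries held 17.5 to 23.8 M recovered reads and the total RNA libraries 13.2 to 42.6 M, with WTex1, WTex2 and B12 the deepest in total RNA (33.6 to 42.6 M, against 13.2 to 16.4 M). Footprints of Eif4g2 itself were 17666 and 13862 normalised reads in the WT cultures, 10261, 7608 and 7275 in the Nat1+/- lines and 1089, 1114 and 922 in the Nat1-/- lines, in the order of the labels without overlap. The stem cell markers Pou5f1, Nanog and Sox2 were present in every culture, at 5338 footprint reads or more. In footprints of Nat1-/- against Nat1+/- cultures 4 of 6 stem cell markers rose, beside 17.6% of all genes tested. Several fibroblast markers were highest in WT. Leaving out Fn1, which stem cells express too, the sum over 12 of them was 10267 and 17191 footprint reads in the WT cultures, 1207 to 3379 in the Nat1+/- lines and 529 to 946 in the Nat1-/- lines. Tagln (5593 to 5906 in WT), Col1a1 and Acta2 carried most of that sum, whereas Thy1 and Pdgfrb were higher in all Nat1+/- cultures than in the WT cultures and Col5a1 overlapped between them. Lum was at 0 in all Nat1-/- libraries, and Dcn at 0 in their footprints. Of 11 tested fibroblast markers 7 were lower in footprints of Nat1-/- than of Nat1+/- cultures and 0 higher, beside 18.6% and 17.6% of all genes. The part of these cells, and of depth, in the results below was not tested.

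The share of footprints on large-subunit mRNAs ranged more widely over the cultures than their share of total RNA. The 52 genes held 3.30% and 2.81% of all footprint reads in the WT cultures, 1.84%, 1.79% and 1.85% in the Nat1+/- lines and 3.87%, 2.68% and 1.87% in B12, B2 and C3. In total RNA they held 3.07% and 3.35% in the WT cultures, 3.49%, 3.32% and 3.32% in the Nat1+/- lines and 2.98%, 3.05% and 2.81% in the Nat1-/- lines. Wilson 95% intervals reached at most 0.00989 percentage points to either side, for counting error only. The 3 Nat1+/- cultures lay close together in footprints, whereas the 3 Nat1-/- cultures spanned the range from the highest culture of all to the Nat1+/- level.

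The median member followed the same order. Relative to the mean of the 8 cultures, the median member's footprints stood at 0.41 and 0.24 on the log2 scale in the WT cultures, at -0.43, -0.52 and -0.40 in Nat1+/-, and at 0.72, 0.28 and -0.36 in B12, B2 and C3. Median deviations in total RNA lay between -0.16 (C3) and 0.16 (A7). B12 had the highest footprint level of the 8 cultures in 40 of 52 members. C3 was below both other Nat1-/- cultures in 48 members, lay within the range of the Nat1+/- cultures in 25, above it in 20 and below it in 7. Shares of all genes are not given for these orders. B12, B2 and both WT cultures all lay above the Nat1+/- cultures and C3 in 42 members, beside 8.22% of 13110 genes. That split was read from these same data. Footprints of Fn1, the matrix protein fibronectin, ran the other way, with 12116 and 25424 normalised reads in the WT cultures, 95663, 54023 and 54006 in the Nat1+/- lines and 18888, 33995 and 73948 in the Nat1-/- lines. For Fn1 C3 again stood with the Nat1+/- cultures, but other markers placed it differently. Its Nanog footprints (19139) stood with those of B12 and B2 (17920 and 18413), above the Nat1+/- lines (9030 to 11738). Its fibroblast marker sum without Fn1 (946) lay below all Nat1+/- lines (1207 to 3379), whereas Col5a1 overlapped between the targeted groups. The part of cell state in the order of the ribosomal protein genes was not tested. In such bulk samples, a change in the share of cells of one kind and a change in every cell cannot be told apart.

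**Figure D1:**
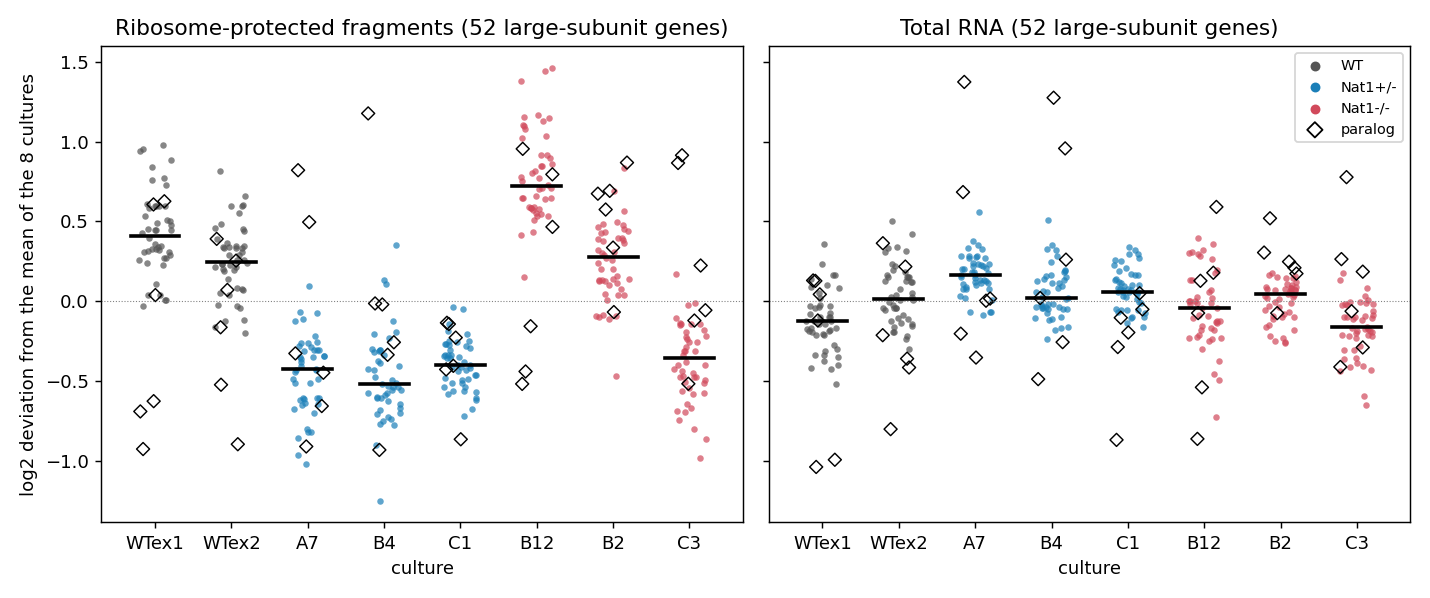
Each dot is 1 of the 52 large-subunit genes (diamonds are the 6 paralogs), the y axis is the log2 deviation of its normalised reads from its mean over the 8 cultures, and the bar is the median, for footprints (left) and total RNA (right). In footprints the medians run from -0.52 in B4 to 0.72 in B12, and in total RNA from -0.16 to 0.16.

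In Nat1-/- against Nat1+/- cultures, footprints of 19 of 52 large-subunit genes rose and 0 fell, led by Rpl22l1, Rpl30, Rpl14, Rplp1, Rpl11 and Rplp2. The median log2 fold change was 0.64, against 0.02 over all 13110 genes tested, and 51 of 52 members had a positive value. A gene is called when its Benjamini-Hochberg adjusted p from limma is under 0.05. Of all genes tested, 17.6% were called higher and 18.6% lower, beside 36.5% of the members called higher. At an unadjusted p under 0.05 there were 30 members (57.7%), beside 46.2% of all genes, and edgeR and DESeq2 on recovered reads called 22 and 32 higher, with 0 lower in either. Both directions together made up 36.1% of all genes. In 18 members (34.6%) all Nat1-/- values lay above all Nat1+/- values, as in 24.6% of all genes.

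The count depended on the cultures. Shares of all genes called are not given for these fits or for edgeR and DESeq2, here and below. A change in count may therefore not be particular to the members. It was 44 without C3, 12 without B12, 4 without B2, and 7, 5 and 11 without A7, B4 and C1, of which 1 of the 11 was lower. Rpl22l1, Rpl30, Rpl14 and Rplp1 kept their call whichever Nat1+/- or Nat1-/- culture was left out. The other 15 lost it without at least 1 of these cultures. Among them Rpl3, Rpl6, Rpl21, Rpl23a, Rpl28, Rpl29, Rpl36a and Rpl39 lost it without any 1 of them except C3.

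Rpl22l1, a paralog of Rpl22 that can take its place in the ribosome, had 4519 and 3539.7 footprint reads in the WT cultures, 1578, 1554 and 1628 in the Nat1+/- lines and 5755, 4735 and 3465 in the Nat1-/- lines. All 3 Nat1-/- cultures were above all 3 Nat1+/- cultures and C3 was about level with WTex2. The log2 fold change between the targeted groups was 1.52 ± 0.18, adjusted p = 0.000405, or 2.87-fold.

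Rpl30, which lies where the large subunit contacts the small one, had 8189, 7569.8 and 7069 footprint reads in the Nat1+/- lines and 20431, 14605 and 12215 in the Nat1-/- lines, beside 12697 and 9443 in WT. No value of the targeted groups overlapped, and the log2 fold change was 1.02 ± 0.20, adjusted p = 0.00425. Rpl14, whose tract begins at the annotated start, had 12489 and 11635 in the WT cultures, 7078, 5966 and 6744 in the Nat1+/- lines and 18059, 13041 and 9866 in the Nat1-/- lines. It was highest in B12 and lowest in B4, with a log2 fold change of 1.01 ± 0.20, adjusted p = 0.00469.

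The stalk recruits the elongation factors to the ribosome. Rplp0, its base, carries the acidic proteins Rplp1 and Rplp2, and Rpl12 binds beside it. Rplp1 had 10902 and 10266 footprint reads in the WT cultures, 6026, 5760.4 and 6781 in the Nat1+/- lines and 12778, 11052 and 7967 in the Nat1-/- lines. Even its lowest Nat1-/- culture, C3, was above the Nat1+/- range (log2 fold change 0.75 ± 0.18, adjusted p = 0.00959). Rplp2 had 16829 and 21101 in the WT cultures, 12421, 11054 and 12691 in the Nat1+/- lines and 28537, 22914 and 15252 in the Nat1-/- lines (0.84 ± 0.22, adjusted p = 0.0153). For Rpl12 the values were 6932 and 7216 in the WT cultures, 4156, 3289.8 and 3696 in the Nat1+/- lines and 7628, 6951 and 4481 in the Nat1-/- lines (0.74 ± 0.20, adjusted p = 0.0159). In both genes C3 was the lowest Nat1-/- culture and above the highest Nat1+/- culture. Rplp0 had 5917 and 6204 in the WT cultures, 3959, 3471 and 4056 in the Nat1+/- lines and 7664, 5779.9 and 3642 in the Nat1-/- lines and was not called (0.51 ± 0.23, adjusted p = 0.111). Its C3 value lay within the Nat1+/- range. Thus 3 of the 4 stalk genes rose in footprints.

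Total RNA of the same 4 genes gave another picture. Rplp0 had 25587 and 29076 total RNA reads in the WT cultures, 26553, 24065 and 25135 in the Nat1+/- lines and 33551, 27304 and 19945 in the Nat1-/- lines, with B12 highest and C3 lowest of all 8. Rplp1 had 15555 and 20330.5 (WT), 23419, 18387 and 20751 (Nat1+/-) and 21720.1, 22052 and 17569 (Nat1-/-). Rplp2 had 13793 and 17211 (WT), 20899.8, 18792 and 19254 (Nat1+/-) and 20309, 20459 and 18344 (Nat1-/-). Rpl12 total RNA was 18228 and 19558 in the WT cultures, 22291, 20267 and 19401 in the Nat1+/- lines and 23463, 21470.2 and 21933 in the Nat1-/- lines. The targeted groups overlapped in all 4 genes. Log2 fold changes between Nat1-/- and Nat1+/- total RNA lay between -0.03 (Rplp1) and 0.11 (Rpl12), and no stalk gene was called in either direction there, nor was one at an unadjusted p under 0.05.

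Rpl5 and Rpl11 bind 5S ribosomal RNA, and the free complex is known to bind the p53 regulator Mdm2 when ribosome assembly is disturbed. Rpl11 had 7460.0 and 7967 footprint reads in the WT cultures, 3364, 5337 and 4423 in the Nat1+/- lines and 8128, 8276 and 5986 in the Nat1-/- lines, without overlap between the targeted groups (log2 fold change 0.78 ± 0.19, adjusted p = 0.0116). Rpl5 had 12078 and 10959 in the WT cultures, 7405, 7749 and 7305 in the Nat1+/- lines and 15491, 10458 and 7550.4 in the Nat1-/- lines and was not called (0.51 ± 0.22, adjusted p = 0.0985). Its C3 value lay between those of the Nat1+/- cultures. Rpl10, a protein that joins the subunit last and reaches toward the peptidyl transferase center, had 9132 and 8443 in the WT cultures, 4318, 4487 and 4940.4 in the Nat1+/- lines and 8882, 6745 and 4060.0 in the Nat1-/- lines (0.45 ± 0.24, adjusted p = 0.172). C3 was the lowest culture of all for Rpl10. In total RNA the same 3 genes had log2 fold changes of -0.21, -0.19 and -0.25 for Rpl11, Rpl5 and Rpl10, with no call. Total RNA reads of Rpl11 were 10461, 9373 and 9712 in the Nat1+/- lines and 8215, 9614 and 7726 in the Nat1-/- lines beside 7950.0 and 9124 in the WT cultures, and those of Rpl5 were 18614, 18419 and 18063 (Nat1+/-) and 16143, 15558 and 16567 (Nat1-/-) beside 15232 and 14830.0 (WT).

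In the other structural groups the footprint counts were as follows, beside 17.6% of all genes and 36.5% of the members called higher. Whether the groups differ was not tested. Both genes of the E site side, Rpl10a of the mobile L1 stalk and Rpl36a, rose (log2 fold changes 0.95 and 0.63). Of the 9 genes for proteins at or around the exit tunnel, through which the new protein leaves, Rpl23a and Rpl39 rose (0.66 and 1.11). This share (22.2%) was near that of all genes, and the median of the 9 was 0.49. Of the 5 genes for proteins that contact the small subunit, Rpl30 rose, and the median of the 5 was 0.68. Among the 23 remaining canonical genes 8 (34.8%) rose, with a median of 0.66: Rpl14, Rpl35a, Rpl37a, Rpl6, Rpl29, Rpl28, Rpl21 and Rpl3. Their log2 fold changes ran from 0.57 (Rpl6) to 1.26 (Rpl37a). In Rpl29 the groups overlapped, with 1809, 2321 and 2503 footprint reads in the Nat1+/- lines and 6664, 6316 and 2361 in the Nat1-/- lines, C3 lying below C1. Among the lowest canonical values were those of Rpl26 (0.04), Rpl7 (0.17) and Rpl9 (0.19), none called. Without B12 these 3 stood at -0.12, -0.09 and -0.12.

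Total RNA gave 1 call upward. In Nat1-/- against Nat1+/- cultures 9 members fell and 1 rose, with a median log2 fold change of -0.16 against 0.01 over all 13813 genes tested. Of all genes tested, 20.2% were called lower and 19.8% higher, so that the 17.3% of members called lower stood near the background. With trimmed mean of M-values (TMM) scaling the split was 4 lower and 2 higher, with edgeR 11 and 0, and with DESeq2 13 and 2. All Nat1-/- values lay below all Nat1+/- values in 21 members (40.4%), beside 24.6% of all genes, and above them in 1, beside 25.6%.

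Rpl13 had 19916 and 21767 total RNA reads in the WT cultures, 25477, 22009 and 23708 in the Nat1+/- lines and 15119.9, 16469 and 15314 in the Nat1-/- lines, with the 3 Nat1-/- cultures lowest (log2 fold change against Nat1+/- -0.60 ± 0.12, adjusted p = 0.00336). Rpl26, which lies at the tunnel exit and is known to bind the p53 mRNA, had 15115 and 21007 in the WT cultures, 19287, 23751 and 19873 in the Nat1+/- lines and 10077, 14311 and 14405 in the Nat1-/- lines (-0.71 ± 0.18, adjusted p = 0.0120). In both genes the Nat1-/- values lay below all 5 other cultures, and Rpl13 kept its call whichever Nat1+/- or Nat1-/- culture was left out.

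Rpl18 also fell (15970.4, 14544 and 14916 total RNA reads in Nat1+/-, 11146, 12366 and 10719.5 in Nat1-/- and 12171 and 15424 in WT cultures, log2 fold change -0.41 ± 0.13, adjusted p = 0.0297). Other called members were Rpl22 (-0.36), Rpl28 (-0.38), Rpl19 (-0.45), Rpl27 (-0.39) and Rpl39l (-1.12), which fell, and Rpl22l1 (0.35), which rose. Counts were 6, 3 and 4 without A7, B4 and C1, and 5, 5 and 6 without B12, B2 and C3.

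Set side by side, every member's footprint fold change lay above its total RNA fold change (52 of 52, beside 6648 of 12933 genes). Of the 19 genes called higher in footprints, 17 were not called in total RNA, Rpl28 was lower there and Rpl22l1 was higher there. The other 8 members called lower in total RNA were not called in footprints. Rpl13 shows the contrast: its footprint reads were 8154, 6099 and 7406 in the Nat1+/- lines and 20183, 9294 and 5687 in the Nat1-/- lines, and its footprint log2 fold change 0.51 ± 0.37, adjusted p = 0.307, with total RNA lower in all 3 Nat1-/- cultures. Footprints of Rpl26 were 4620.3, 7714 and 6181 (Nat1+/-) and 7820.2, 5081 and 6046 (Nat1-/-), with ranges that overlapped.

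**Figure D2:**
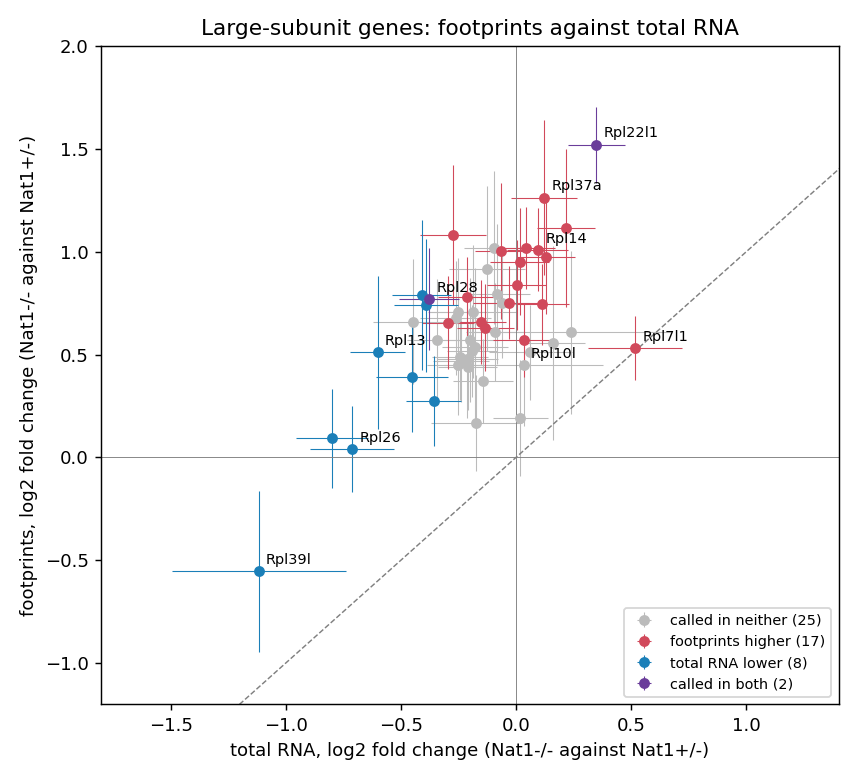
Log2 fold change of footprints (y axis) against that of total RNA (x axis) for Nat1-/- against Nat1+/- cultures, 1 point for each of 52 genes with its standard error, coloured by calls, with a dashed line where both are equal. All 52 points lie above the line, with Rpl7l1 nearest to it.

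Translational efficiency (TE), the footprint to total RNA ratio of a gene within a culture, puts both assays together. It has a meaning only relative to other genes, since scaling by library hides a change shared by most of them. Between Nat1-/- and Nat1+/- cultures the TE change was positive in 52 of 52 members, beside 6648 of 12933 genes. The median log2 change was 0.82 against 0.01 over the same genes. Since the TE change is the footprint fold change less that of total RNA, this count repeats the side-by-side count above. The groups did not overlap in 44 members (84.6%), all with Nat1-/- higher, beside 18.5% of all genes. The interaction test over all 16 libraries called 1 member, Rpl22l1, beside 0.0309% of genes called higher and 0.549% lower (0.58% in all), with 40 members (76.9%) at an unadjusted p under 0.05, beside 10.5% of all genes. Footprint and total RNA libraries of 1 culture deviated together, and with a culture term in the fit 35 members (67.3%) were called higher and 0 lower, beside 6.49% and 9.26% of all genes. edgeR called 1 and DESeq2 17. With the culture term the count was 45 without C3, 28 without B12, 15 without B2, and 9, 16 and 15 without A7, B4 and C1. Without the culture term, Rpl22l1 lost its call without any single Nat1+/- or Nat1-/- culture except C3, and without C3 33 members were called.

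TE of Rpl22l1, as the log2 ratio of normalised reads, was 0.13 and 0.03 in the WT cultures, -1.36, -1.11 and -1.11 in the Nat1+/- lines and 0.34, -0.01 and -0.40 in the Nat1-/- lines. Nat1+/- cultures were the lowest 3 of the 8. The change between the targeted groups was 1.17 ± 0.23, adjusted p = 0.0297 and, with the culture term, adjusted p = 0.00140. The highest TE change belonged to Rpl29, a small protein of the subunit surface also described as a heparin-binding protein. Its log2 ratio was 1.60 and 1.35 in the WT cultures, -0.07, 0.44 and 0.17 in the Nat1+/- lines and 2.16, 1.83 and 0.62 in the Nat1-/- lines, so that C3 stood closer to B4 than to B2. Its change was 1.35 ± 0.41, adjusted p = 0.176, and 0.0151 as adjusted p with the culture term. Rpl7l1 had the smallest change, with log2 ratios of -0.59 and -0.64 in the WT cultures, -0.59, -0.27 and -0.54 in the Nat1+/- lines and -0.62, -0.47 and -0.26 in the Nat1-/- lines, which overlapped (0.01 ± 0.27, adjusted p = 0.997).

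By structural group, with the culture term, TE rose in 4 of 4 stalk genes, 3 of 3 of Rpl5, Rpl10 and Rpl11, 2 of 2 of the E site side, 6 of 9 at the exit tunnel, 2 of 5 that contact the small subunit, 16 of 23 remaining canonical genes and 2 of 6 paralogs. In that fit 67.3% of all members and 6.49% of all genes were called higher. Whether the groups differ was not tested. Stalk values were -2.11 and -2.23 in the WT cultures, -2.75, -2.79 and -2.63 in the Nat1+/- lines and -2.13, -2.24 and -2.45 in the Nat1-/- lines for Rplp0, the change of which (0.45 ± 0.10, adjusted p = 0.0165, culture term) passed although its footprints alone did not. Rplp2 stood at 0.29 and 0.29 in the WT cultures, -0.75, -0.77 and -0.60 in the Nat1+/- lines and 0.49, 0.16 and -0.27 in the Nat1-/- lines (0.84 ± 0.16, adjusted p = 0.00687, culture term). In both genes every Nat1-/- culture was above every Nat1+/- culture and C3 was the lowest of the 3. The changes of Rplp1 and Rpl12 were 0.78 and 0.63.

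By pyrimidine tract, the ranges of TE change overlapped. The 7 genes with a tract at the annotated start had a median TE change of 0.91, from 0.84 to 1.15, and 6 of them were called with the culture term. The 10 with one within 5 bases had a median of 0.78 and 7 calls. The 23 without one had a median of 0.71, from 0.01 to 1.14, and 12 calls. Of all genes, 6.49% were called higher in that fit. Only 1 of 6 paralogs, Rpl22l1, had a tract within 5 bases. The set without a tract thus holds the other paralogs, among them Rpl7l1 with the lowest value, 0.01. These medians are a description and were not tested.

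**Figure D3:**
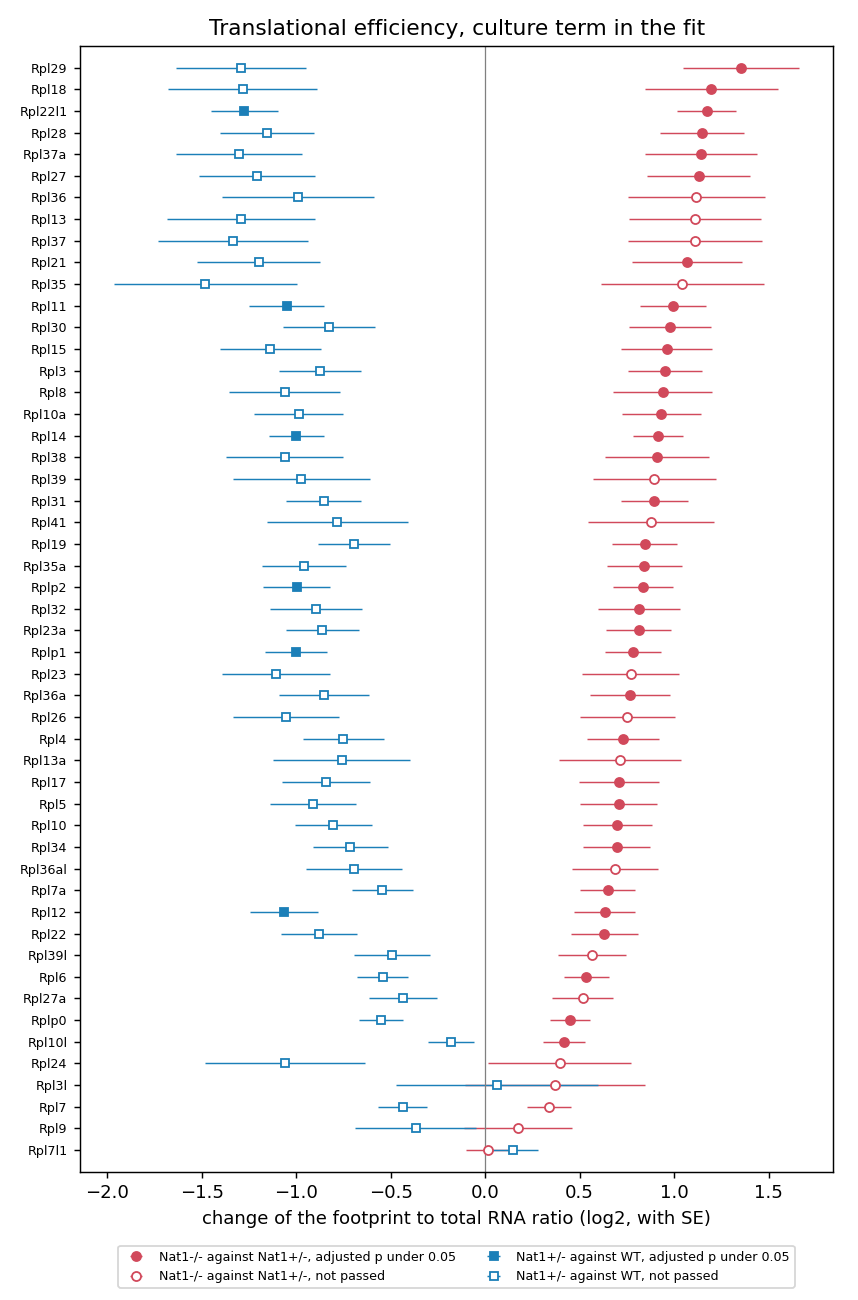
TE change in log2 units with its standard error for 51 of the genes from the fit with a culture term, for Nat1-/- against Nat1+/- (red circles) and Nat1+/- against WT (blue squares), filled where the adjusted p is under 0.05. Both comparisons use the same Nat1+/- cultures, so the near mirror image of the columns is in part fixed by them.

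The paralogs did not move as one group. Rpl22l1 rose in footprints and in total RNA, and Rpl7l1, a nucleolar relative of Rpl7 that acts in subunit assembly, rose in footprints (0.53 ± 0.16, adjusted p = 0.0255). The other 4 were not called in footprints, and Rpl39l was lower in total RNA.

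Rpl22 is known to hold down its paralog Rpl22l1, which is raised in cells that lack Rpl22. Total RNA of Rpl22 was 13126 and 12401 reads in the WT cultures, 16405, 14575 and 15781 in the Nat1+/- lines and 13497, 11267 and 11799 in the Nat1-/- lines. That of Rpl22l1 was 4139 and 3466 in the WT cultures, 4064, 3363 and 3506 in the Nat1+/- lines and 4546, 4770.4 and 4568 in the Nat1-/- lines. Thus Nat1-/- cultures were below all Nat1+/- cultures for the parent (-0.36 ± 0.12, adjusted p = 0.0382) and above all of them for the paralog (0.35 ± 0.12, adjusted p = 0.0457). The total RNA call was lost in 5 of 6 fits that left out 1 culture for Rpl22 (all but that without B12) and in 4 of 6 for Rpl22l1 (without B4, C1, B12 or B2). Footprints of Rpl22 were 9901 and 8484 in the WT cultures, 5673, 6637 and 5975 in the Nat1+/- lines and 10295, 7428 and 5197 in the Nat1-/- lines (0.27 ± 0.22, adjusted p = 0.355). Rpl22l1 reads as a percentage of Rpl22 reads, which can be compared between cultures but not as molecule numbers since no lengths were used, were 45.6 and 41.7 in WT footprints, 27.8, 23.4 and 27.2 in the Nat1+/- lines and 55.9, 63.7 and 66.7 in the Nat1-/- lines. The corresponding total RNA percentages were 31.5 and 27.9 (WT), 24.8, 23.1 and 22.2 (Nat1+/-) and 33.7, 42.3 and 38.7 (Nat1-/-). In these percentages C3 stood with B12 and B2 and not with the Nat1+/- cultures, although its Rpl22 footprints were the lowest of all cultures.

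Rpl39l, known mainly from the testis, is a paralog of the tunnel protein Rpl39. It had 301 and 249.8 footprint reads in the WT cultures, 824, 1055 and 352 in the Nat1+/- lines and 325, 695 and 428 in the Nat1-/- lines. Its total RNA was 171 and 201 in the WT cultures, 914, 854 and 339.7 in the Nat1+/- lines and 193, 397 and 337 in the Nat1-/- lines. Lines A7 and B4 were high in both assays, whereas C1 lay within the Nat1-/- range. Its footprint log2 fold change for Nat1-/- against Nat1+/-, the only negative one among the members, was -0.55 ± 0.39, adjusted p = 0.294, and that of total RNA -1.12 ± 0.38, adjusted p = 0.0387, a call that was lost without A7, B4 or B12. Rpl39 had 8308 and 5024 footprint reads in the WT cultures, 3154, 3776 and 3705 in the Nat1+/- lines and 14894, 7236 and 4149 in the Nat1-/- lines, and 5498 and 5239 (WT), 6303, 5071 and 5974 (Nat1+/-) and 7293, 6721 and 6135 (Nat1-/-) in total RNA.

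Rpl10l, a retrogene copy of Rpl10 known from male germ cells, had 467 and 618 footprint reads in the WT cultures, 1253, 879.9 and 660.2 in the Nat1+/- lines and 797, 1436 and 1621 in the Nat1-/- lines. WT cultures were the lowest, C3 was the highest, and the targeted groups overlapped. Its total RNA was 359 and 537 in the WT cultures, 1151, 858 and 587 in the Nat1+/- lines and 492, 1027 and 1228 in the Nat1-/- lines, with the same highest culture. Rpl10 total RNA was 10036 and 11781 (WT), 10772, 9354 and 9582 (Nat1+/-) and 8879.8, 9057 and 7107 (Nat1-/-), with C3 lowest of the 8. Reads of Rpl10 and Rpl10l, and of the other close pairs, may be split uncertainly, since the treatment of reads that match several places was not given in the sources used here.

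Rpl3l, a muscle paralog of Rpl3, was the weakest member, with 22.5 and 32.9 footprint reads in the WT cultures, 29.3, 36.5 and 33.6 in the Nat1+/- lines and 27.0, 68.4 and 70.6 in the Nat1-/- lines. Its total RNA was 29.5 and 24.8 (WT), 27.8, 63.3 and 17.1 (Nat1+/-) and 35.2, 37.3 and 38.8 (Nat1-/-). The targeted groups overlapped in both assays. Rpl3 itself rose in footprints, from 9639.6, 8381 and 9657 in Nat1+/- to 21084, 12969 and 11134 in the Nat1-/- lines (WT 17111 and 13035, log2 fold change 0.65 ± 0.23, adjusted p = 0.0468). Its total RNA was 22563 and 22969 in the WT cultures, 26859.5, 24492 and 25817 in the Nat1+/- lines and 21145, 21376 and 20309 in the Nat1-/- lines.

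Rpl7l1 total RNA was 4389 and 4669.9 in the WT cultures, 3145, 2863 and 3739 in the Nat1+/- lines and 6053, 4964 and 3286 in the Nat1-/- lines, the largest positive total RNA change among the members but not called (0.52 ± 0.20, adjusted p = 0.0669). Its footprints were 2922 and 2989 in the WT cultures, 2085, 2380.5 and 2577 in the Nat1+/- lines and 3931, 3592 and 2736 in the Nat1-/- lines. B12 was the highest and C3 the lowest Nat1-/- culture in both assays. Rpl7 had 22279 and 21868 footprint reads in the WT cultures, 23683, 23873 and 16368 in the Nat1+/- lines and 33449.8, 20562 and 19013 in the Nat1-/- lines, with A7 and B4 above both WT cultures, unlike most members. Rpl7 total RNA was 15979.5 and 15376 (WT), 21969, 23089 and 16169 (Nat1+/-) and 22572, 18591 and 13663 (Nat1-/-).

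Rpl36al, whose protein is nearly identical to that of Rpl36a, had 2499 and 2122 footprint reads in the WT cultures, 1026, 1282 and 1381 in the Nat1+/- lines and 2809, 1544 and 1130.1 in the Nat1-/- lines. The parent Rpl36a had 7744 and 6489.8 (WT), 5076, 4329.6 and 4901 (Nat1+/-) and 10457, 6826 and 5593 (Nat1-/-). Both had B12 highest, but C3 was above all Nat1+/- cultures only for Rpl36a, a difference that was not tested. In total RNA Rpl36al stood at 3370.0 and 3962 (WT), 3086, 3122 and 3188 (Nat1+/-) and 2924, 2924 and 2314 (Nat1-/-), and Rpl36a at 8773 and 10296 (WT), 12213, 10366 and 12068 (Nat1+/-) and 9961, 11067 and 10475 (Nat1-/-).

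**Figure D4:**
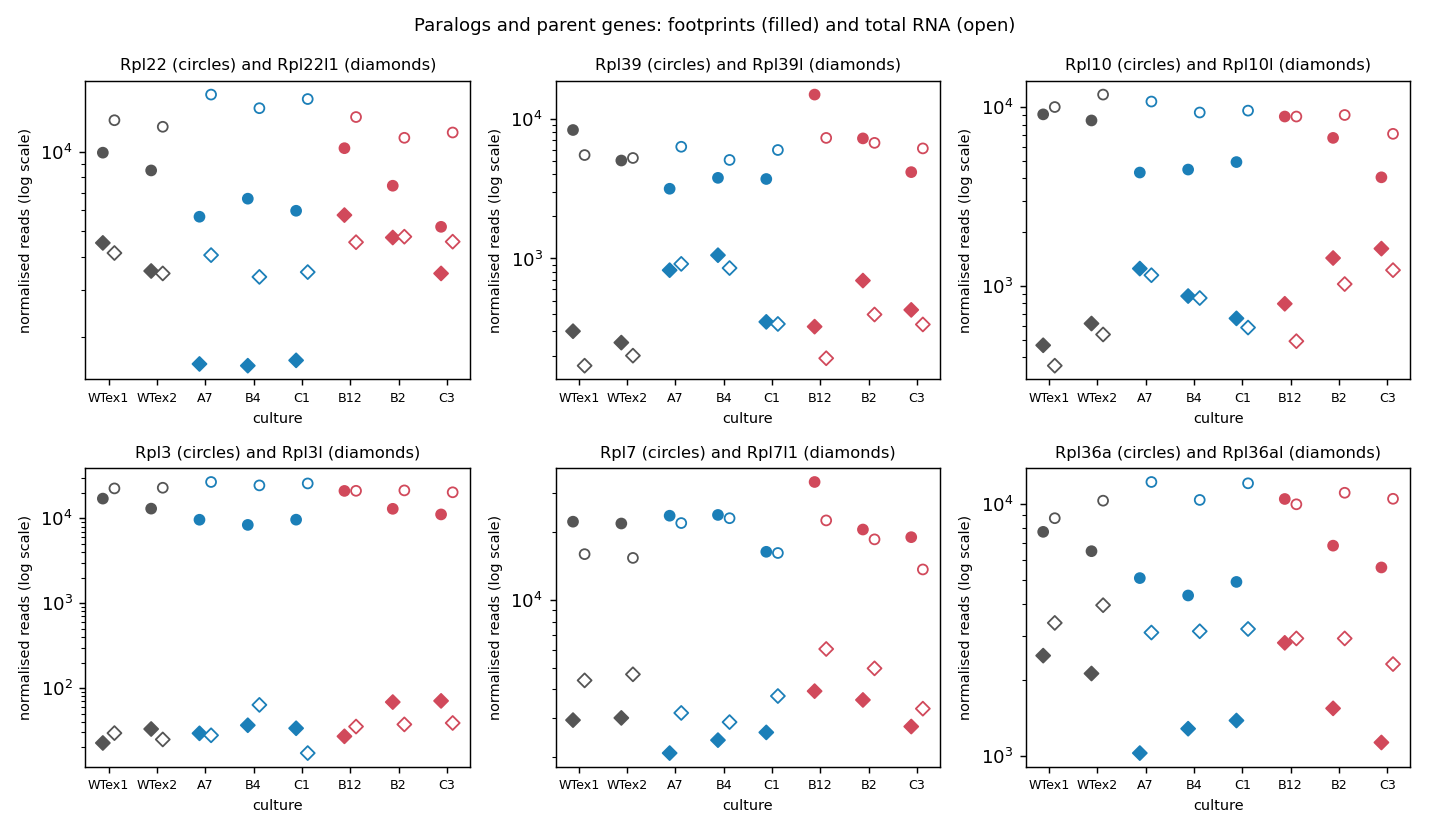
Normalised reads (log scale) of 6 paralogs (diamonds) and their parent genes (circles) in the 8 cultures, for footprints (filled) and total RNA (open), coloured grey for WT, blue for Nat1+/- and red for Nat1-/-. Footprints of Rpl22l1 are lowest in the Nat1+/- cultures (1554 to 1628), whereas Rpl39l is highest in A7 and B4 (824 and 1055).

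Against WT, the Nat1-/- cultures showed few differences in footprints. One member rose, Rpl10l, and one fell, Rpl26, and the median log2 fold change was -0.06 against 0.03 over all genes. Of all genes tested, 16.5% were called higher and 18.3% lower. Rpl10l values, given above, were all higher in Nat1-/- than in WT cultures (1.19 ± 0.33, adjusted p = 0.0202). Footprints of Rpl26 were 10765 and 10644 in the WT cultures and 7820.2, 5081 and 6046 in the Nat1-/- lines, all lower (-0.78 ± 0.23, adjusted p = 0.0272). Non-overlap was found in 2 members upward (30.7% of all genes) and 3 downward (28.9%). Without B12 the count was 13, of which 11 lower, without C3 it was 5, of which 4 higher, and without B2, WTex1 or WTex2 it was 0.

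Nat1+/- cultures had lower footprints than WT. Of 52 members 8 fell and 0 rose, and the median was -0.79 against -0.01 over all genes. At an unadjusted p under 0.05 stood 41 members (78.8%), beside 30.9% of all genes. Of all genes tested 5.13% were called lower and 5.35% higher. In 45 members (86.5%) all 3 Nat1+/- values lay below both WT values, beside 28.1% of all genes. Non-overlap in the other direction held for 2 members, beside 27.3%. edgeR called 10 lower, and DESeq2 called 25 lower and 1 higher. No call held whichever culture was left out: the count was 0 without WTex1, WTex2 or A7, 5 without B4 and 2 without C1, of which 1 was higher.

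The called genes were Rpl22l1, Rpl23a, Rpl12, Rpl27, Rpl11, Rplp1, Rpl23 and Rpl14. Rpl22l1 led (-1.33 ± 0.21, adjusted p = 0.0132). Rpl23a, a docking site at the tunnel exit, had 19600.5 and 13658 footprint reads in the WT cultures and 7611, 8864 and 8258 in Nat1+/- cultures (-0.99 ± 0.23, adjusted p = 0.0303). Rpl27 had 12474 and 9980.1 in the WT cultures and 3119.6, 4702 and 4534 in Nat1+/- cultures (-1.46 ± 0.36, adjusted p = 0.0366), the largest fall of a member. Both WT cultures were above all 3 Nat1+/- cultures in each of these genes. Rpl12, Rpl11 and Rplp1, with values above, had log2 fold changes of -0.94, -0.84 and -0.78.

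Total RNA against WT changed in few members. In Nat1+/- cultures Rpl39l rose (1.79 ± 0.42, adjusted p = 0.0301), the only call, beside 4.6% of genes called higher and 5.41% lower, and the median was 0.18 against -0.02 over all genes. This call was lost without A7, B4, WTex1 or WTex2. All Nat1+/- values lay above both WT values in 20 members, beside 26% of all genes, and below in 5, beside 28.6%. In Nat1-/- cultures 7 members fell and 1 rose, beside 18.9% and 16.2% of all genes, with a median of 0.02 against 0.02 over all genes, and the median turned to -0.10 with equal library sums, a scaling that moved the median of all genes to -0.11. Values did not overlap in 12 members upward and 12 downward, beside 30% of all genes in each direction.

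Rpl19, a tunnel exit protein, had 11537 and 12029 total RNA reads in the WT cultures, 8453, 11211 and 9371 in the Nat1+/- lines and 7922, 7661 and 5732 in the Nat1-/- lines, with Nat1-/- cultures lowest (-0.74 ± 0.18, adjusted p = 0.00853 against WT). Rpl27 had 8855 and 11199.9 in the WT cultures, 7529, 9368 and 8280.3 in the Nat1+/- lines and 6399, 6944 and 5834 in the Nat1-/- lines (-0.64 ± 0.16, adjusted p = 0.00965). Rpl23 total RNA was 21078 and 21088 in the WT cultures and 15947, 16167 and 15486 in the Nat1-/- lines, and that of Rpl38 was 12833 and 14973 (WT) and 10245, 10802 and 9753 (Nat1-/-), each lower in all 3 Nat1-/- cultures. Other members that fell were Rpl13 (-0.41), Rpl23 (-0.41), Rpl38 (-0.43) and Rpl36al (-0.43). Rpl38 is the gene whose loss of 1 copy gives the Tail short mouse its skeletal defects. Rpl37a rose, with 7716 and 9524 in the WT cultures and 14560.0, 12332 and 11037 in the Nat1-/- lines (0.55 ± 0.16, adjusted p = 0.0226). Counts were 2 and 1 without WTex1 and WTex2 and 7, 3 and 5 without B12, B2 and C3, and 0 of the 8 calls held whichever culture was left out.

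TE against WT was called in 0 members in either targeted group by the interaction test. For Nat1-/- cultures the median was -0.08 (0.03 over all genes), 0 members had an unadjusted p under 0.05, and edgeR, DESeq2 and the culture term called 0, beside 0.00773% of all genes called lower and 0% higher (culture term 0.99% and 0.232%). Rpl24, a protein that reaches to the small subunit, had 868 and 1053 footprint reads in the WT cultures, 515, 251 and 583 in the Nat1+/- lines and 1282, 618 and 303 in the Nat1-/- lines, and in total RNA 1525 and 1380.4 (WT), 1456, 1273 and 1292 (Nat1+/-) and 1764, 1415 and 1340.3 (Nat1-/-). The smallest p-values belonged to Rpl12 (-0.43 ± 0.26, adjusted p = 1.00) and Rpl24 (-0.66) downward and Rpl3l (0.43) and Rpl30 (0.15) upward. Non-overlap was found in 1 member in each direction, beside 14.9% of genes higher and 12.3% lower. These values do not show that Nat1-/- and WT cultures had equal TE, since the standard error of a member was 0.25 to 0.68.

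For Nat1+/- cultures the median TE change against WT was -0.90 (0.02 over all genes), and 50 of 52 members were negative. All 3 values lay below both WT values in 48 members (92.3%), beside 19.3% of all genes. At an unadjusted p under 0.05 there were 35 members (67.3%), beside 5.13% of all genes, edgeR called 0, DESeq2 2 and the fit with the culture term 6, beside 0.433% of all genes called lower and 0.696% higher. Those 6 were Rpl22l1, Rpl14, Rpl12, Rplp1, Rplp2 and Rpl11, and the count was 0 when any of the 5 cultures was left out. Rpl22l1 (-1.27 ± 0.18, adjusted p = 0.0290) and Rpl12 (-1.06 ± 0.18, adjusted p = 0.0443) are given from that fit. Rpl7l1 and Rpl3l were the 2 members with a positive value (0.15 and 0.06). Since this comparison and that of the targeted groups share the Nat1+/- cultures, their calls are not independent.

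Genes that work with the large subunit were followed as lists for Nat1-/- against Nat1+/- footprints, where 17.6% of all genes were called higher and 18.6% lower. In the small subunit 16 of 34 genes (47.1%) rose, with a median log2 fold change of 0.70, among them Fau (1.06), Rps25 (0.74) and Rps28 (1.03). Of 18 other genes with known TOP mRNAs 7 (38.9%) rose, with a median of 0.45, among them Eef1a1 (1.11), the factor that brings tRNA to the ribosome, Eif3f (0.80) and Vim (0.51). TE medians of these lists were 0.80 and 0.73, against 0.82 for the large subunit. Of 47 genes for the large subunit of the mitochondrial ribosome, which is built apart, 10 (21.3%, near the share of all genes) rose and 1 fell, with a median of 0.36 in footprints and 0.23 in TE. Mrpl39 (0.56) and Mrpl50 (0.68) rose and Mrpl23 (-1.22) fell there. Whether any list differed from another was not tested.

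Of 44 large-subunit assembly factors 5 (11.4%) rose and 1 fell in footprints, with a median of 0.00, both shares below those of all genes. In total RNA 15 (34.1%, beside 20.2% of all genes) fell and 2 rose, with a median of -0.26. Ddx51, a nucleolar helicase, rose in footprints (0.81). Senp3, a nucleolar SUMO protease, rose in footprints (0.64) and total RNA (1.02), and so did Eif6 (0.71 and 0.88), which keeps the subunits apart until the large one is mature, whereas Gtpbp4 fell in total RNA (-0.67). Of 9 genes of RNA polymerase I transcription 3 (33.3%) rose in footprints, Ubtf (0.49), Polr1a (0.68) and Polr1c (0.67). When 1 culture was left out, Polr1c lost its call in 5 fits, Polr1a in 2 and Ubtf in 0. In total RNA 2 of the 9 (22.2%) rose and 1 (11.1%) fell, beside 19.8% and 20.2% of all genes. Of 13 genes around mTORC1 2 (15.4%) rose and 1 (7.69%) fell in footprints, neither share above that of all genes: the S6 kinase gene Rps6kb2 (1.60) and the mTORC1 inhibitor gene Akt1s1 (1.52) rose, and Larp1 fell (-0.75, adjusted p = 0.00273). In total RNA 4 of the 13 (30.8%) rose and 0 fell, beside 19.8% and 20.2% of all genes. Akt1s1 (1.08) and Rps6kb2 were among those that rose there. The 3 footprint calls around mTORC1 held whichever Nat1+/- or Nat1-/- culture was left out.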

How the data were processed

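Ribosome footprints and total RNA were measured in 8 cultures (WT, n = 2, Nat1+/-, n = 3, and Nat1-/-, n = 3). Per the labels' protocols, libraries came from the TruSeq Ribo Profile kit. Tools named in the submitters' processing notes are DESeq2, HTSeq 0.6.1, TopHat2 2.1.0, Bowtie2 2.2.8, cutadapt 1.9.1 and bcl2fastq 2.17. Values are a deposited signal: read counts that the authors divided by 1 size factor per library. Multiplying back gave whole reads (tolerance 0.001) for 100% of values in all 16 libraries. Such scaling hides a shift shared by most genes, and the handling of strand and of multiply matching reads was not given in the sources used here.

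Values as log2(value + 1) went into limma 3.58.1 (R 4.3.3), 1 fit per assay, with genotype means, a trended prior and genes of mean 10 or more. The log2 fold changes so understate the change of low genes. TE was the interaction of assay and genotype over 16 libraries. A call needs an adjusted p under 0.05 (two-sided, Benjamini-Hochberg over all genes tested). Fits were tested on simulated data first. Named members are the stalk and 5S genes, paralogs with parents, up to 6 called genes with the smallest adjusted p per direction and comparison (2 with the smallest p where none was called), and the highest and lowest fold changes of Nat1-/- against Nat1+/-. Up to 3 called genes per other list were named. Some results are not reported here, and their genes stay in the counts and medians. Members, lists and tests were chosen with earlier results of these data known. Both libraries of a culture deviated together (r = 0.384 to 0.821 across genes, 8 of 8 cultures), so the TE fit with a culture term is given beside the main one. Alternatives were other pseudocounts, filters and scalings, edgeR 4.0.16, DESeq2 1.42.0, blocks, and leaving out cultures. Only cultures of the 2 groups compared were left out. Leaving out each culture in the fit with the culture term was added after seeing the data. Targeted samples are separate lines, and p-values for WT rest on 2 cultures of 1 line.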

Additional observations from a re-analysis of the deposited data

How the results depend on the processing

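The members' median kept its sign in every alternative run except for Nat1-/- against WT, where it ran from -0.32 (without B12) to 0.21 (without C3) in footprints, from -0.32 (without B12) to 0.18 (without C3) in TE, and from -0.10 (equal library sums) to 0.10 (without WTex2) in total RNA. In footprints of Nat1-/- against Nat1+/- cultures the called members numbered 32 with DESeq2 and 9 with only the cultures of shallow total RNA libraries, and 4 to 44 when 1 culture was left out. For Nat1-/- against WT footprints the latter range was 0 to 13. For Nat1+/- against WT footprints the count was 13 with equal library sums, 26 with DESeq2, 1 with the replicate block and 0 to 5 without 1 culture. Total RNA of Nat1-/- against Nat1+/- gave 4 with no filter on low values, 6 with TMM factors, 6 with the shallow cultures and 3 to 6 without 1 culture. Against WT, total RNA of Nat1-/- gave 5 with no filter, 13 with equal sums, 4 with the replicate block and 1 to 7 without 1 culture, and that of Nat1+/- gave 3 with DESeq2, 0 with the replicate block and 0 to 1 without 1 culture. TE of Nat1-/- against Nat1+/- gave 17 with DESeq2, 35 with the culture term as a block, 0 with the shallow cultures, 0 to 33 without 1 culture, and, in the fit with the culture term, 9, 16 and 15 without A7, B4 and C1 and 28, 15 and 45 without B12, B2 and C3. TE of Nat1+/- against WT gave 2 with DESeq2 and 6 with the culture term. Shares of all genes called in these runs are not given, so the changes in count may not be particular to the members. The causes were not tested.

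The median fold change of the members in footprints of Nat1+/- against WT was -0.64 with the replicate block and -0.73 to -0.90 without 1 WT culture. In total RNA it was 0.09 with equal sums and 0.09 to 0.25 without 1 WT culture for Nat1+/-, and -0.10 with equal sums for Nat1-/-, and the TE median of Nat1+/- against WT was -1.09 to -0.76 without 1 culture, with or without the culture term. The footprint median of Nat1-/- against Nat1+/- ranged from 0.38 (shallow cultures) to 0.93 (without C3). Replicate numbers are not known to pair the cultures across genotypes, so the block uses a number only. Deviations of same-number cultures had r of 0.28 in footprints and 0.34 in total RNA for WTex1 with B12. For WTex2 with B2 they were 0.10 and 0.17, and every pair with a Nat1+/- culture had a negative r. Of single-gene alternatives 1503 kept their direction and side of the threshold, 259 lost the call, 48 gained one and 13 of uncalled genes changed sign. Lone WT cultures in left-out fits are assumed to vary like the others. Depth limits Rpl3l most, with 17.1 normalised reads at its lowest.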
